A study of Mus musculus with 30 samples.

Results

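The 4 genes of the positive limb of the circadian clock, Arntl, Clock, Npas2 and Arntl2, were followed through the day in mouse retinal pigment epithelium (RPE). They were chosen by their symbols among the 51904 genes of the deposited expression table, and each symbol matched 1 row. The samples came from male wild-type C57BL/6 mice aged 10-13 weeks. Each of 6 zeitgeber times (ZT0, ZT2, ZT4, ZT9, ZT14 and ZT19, in hours) is represented by 5 mice. Every library came from 1 eye of 1 mouse, no genotype or treatment differed between the groups, and the labels place ZT0 at 7 h clock time without stating when the lights went off. After removal of the front of the eye and of the retina, RPE clumps were lifted from the choroid with forceps, so the samples are bulk dissections that can hold other eye tissue.

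BMAL1, the protein of Arntl, pairs with CLOCK through basic helix-loop-helix and PAS domains. The pair binds E-box elements and switches on the Per and Cry genes, whose proteins then inhibit it. NPAS2 is a relative of CLOCK that can take its place in the pair, and BMAL2, the protein of Arntl2, is a relative of BMAL1. A second loop acts on transcription of the activator genes: receptors such as RORA and RORB activate, and REV-ERB alpha and beta (Nr1d1 and Nr1d2) repress, through shared elements in the Arntl promoter. In the RPE the clock is known for its link to the daily shedding and phagocytosis of photoreceptor outer segments.

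The genes lie on 4 chromosomes of GRCm38, the assembly also called mm10, in the GENCODE M21 annotation. Arntl (ENSMUSG00000055116) spans chr7:113207465-113314126 on the plus strand, Clock (ENSMUSG00000029238) chr5:76209868-76304792 on the minus strand, Npas2 (ENSMUSG00000026077) chr1:39193731-39363236 on the plus strand and Arntl2 (ENSMUSG00000040187) chr6:146796055-146833529 on the plus strand. All 4 matched entries in a RefSeq promoter table (GRCm38.p6; 250 bases before to 50 after a start site), with 2 windows for Arntl, 3 for Clock and 1 each for Npas2 and Arntl2. The 2 sequences given here belong to the members with the largest fitted daily amplitudes. Capitals mark the exact letters TAGGTCA, a form of the ROR/REV-ERB element, found among the member windows in this Arntl window alone.
Arntl promoter window, chr7:113207261-113207560, plus strand: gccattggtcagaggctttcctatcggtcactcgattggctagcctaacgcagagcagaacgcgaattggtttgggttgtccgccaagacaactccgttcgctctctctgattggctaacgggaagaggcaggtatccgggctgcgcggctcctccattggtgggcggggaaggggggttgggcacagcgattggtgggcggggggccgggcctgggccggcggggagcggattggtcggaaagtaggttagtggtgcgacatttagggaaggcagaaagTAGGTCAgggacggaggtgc
Npas2 promoter window, chr1:39194022-39194321, plus strand: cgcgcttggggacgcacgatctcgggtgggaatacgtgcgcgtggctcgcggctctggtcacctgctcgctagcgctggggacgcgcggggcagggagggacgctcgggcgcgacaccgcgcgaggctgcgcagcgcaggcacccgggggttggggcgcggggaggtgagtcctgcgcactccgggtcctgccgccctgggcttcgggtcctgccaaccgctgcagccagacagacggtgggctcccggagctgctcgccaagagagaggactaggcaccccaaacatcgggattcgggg

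In the Arntl window the element covered bases 281 to 287, which is 30 to 36 bases after that start site on the plus strand. TAGGTCA occurred, on either strand, in 2.61% of the 32851 mouse promoter windows of the same length. The other 6 member windows held no TAGGTCA. Of these, the windows of Npas2 and Arntl2 (chr6:146805280-146805579) and 1 of Clock (chr5:76303453-76303752) lay inside the annotated genes. The lack of a match in these windows does not describe the annotated gene start. Another Clock window (chr5:76304499-76304798, minus strand) also had its start site inside the gene, which ends at 76304792. It thus held few bases before the annotated start of Clock. None of the 7 member windows held the second ROR/REV-ERB form TGGGTCA (3.98% of all windows), the E-box CACGTG (7.15%), its variant CACGTT (4.69%), or the D-boxes TTATGTAA (0.938%) and TTACGTAA (0.119%), searched on both strands and with no overlap among the matches found. Only these exact letters were searched, so other forms of the elements, also in the Arntl windows, were not counted. These matches describe letters in 300-base windows and do not show binding.

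The unit of the deposited values is FPKM, a fragment count normalised to transcript length and library depth, which lets levels of different genes be set side by side. Depth was estimated from the steps between low values at 12.4 to 23.0 M reads per library (M: mega), which makes 1 FPKM of the longest transcript worth 47.3 to 87.1 reads for Arntl and 34.9 to 64.3 reads for Arntl2. Libraries held 16723 to 19374 genes above 0, apart from ZT14 replicate 3 with 12754. That library listed 557 genes at 0 with a median of 10 FPKM or more elsewhere, while the others listed 1 to 23 such genes. It also listed Arntl, Npas2 and Arntl2 at 0, and whether such a 0 was an absent transcript or a failed estimate was not tested. Values refitted without that library are given beside many results that use it, but not for other processing settings, median ratios or fits of single pathway genes. Of the 8 RPE markers, 7 were above 0 in every library, with a summed level of all 8 between 4523 and 15445 FPKM, while Best1 had a median of 0.607 FPKM and was listed at 0 in 8 libraries. Markers of surface epithelium (2279 to 20701 FPKM summed over 8 genes) and skeletal muscle (2019 to 24200 FPKM) were also abundant. Rod markers summed to 24.0 to 10537 FPKM and myelin markers to 85.3 to 11242 FPKM, each over 8 genes. In such bulk samples fewer cells of a type and less RNA per cell cannot be told apart.

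Clock was the most abundant activator transcript, with a median of 16.6 FPKM over the 30 samples, above that of 63.6% of the 16741 genes that reached 1 FPKM in at least 5 samples. Arntl followed with a median of 11.4 FPKM (53.9%), then Npas2 with 2.91 FPKM (27.2%) and Arntl2 with 1.78 FPKM (21.0%). All 4 genes passed that filter. Clock reached 1 FPKM in 30 of 30 samples, Arntl in 28, Npas2 in 21 and Arntl2 in 19. Within single samples Npas2 never exceeded Clock (0 of 30), and Arntl exceeded Clock in 6 of 30.

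**Figure D1:**
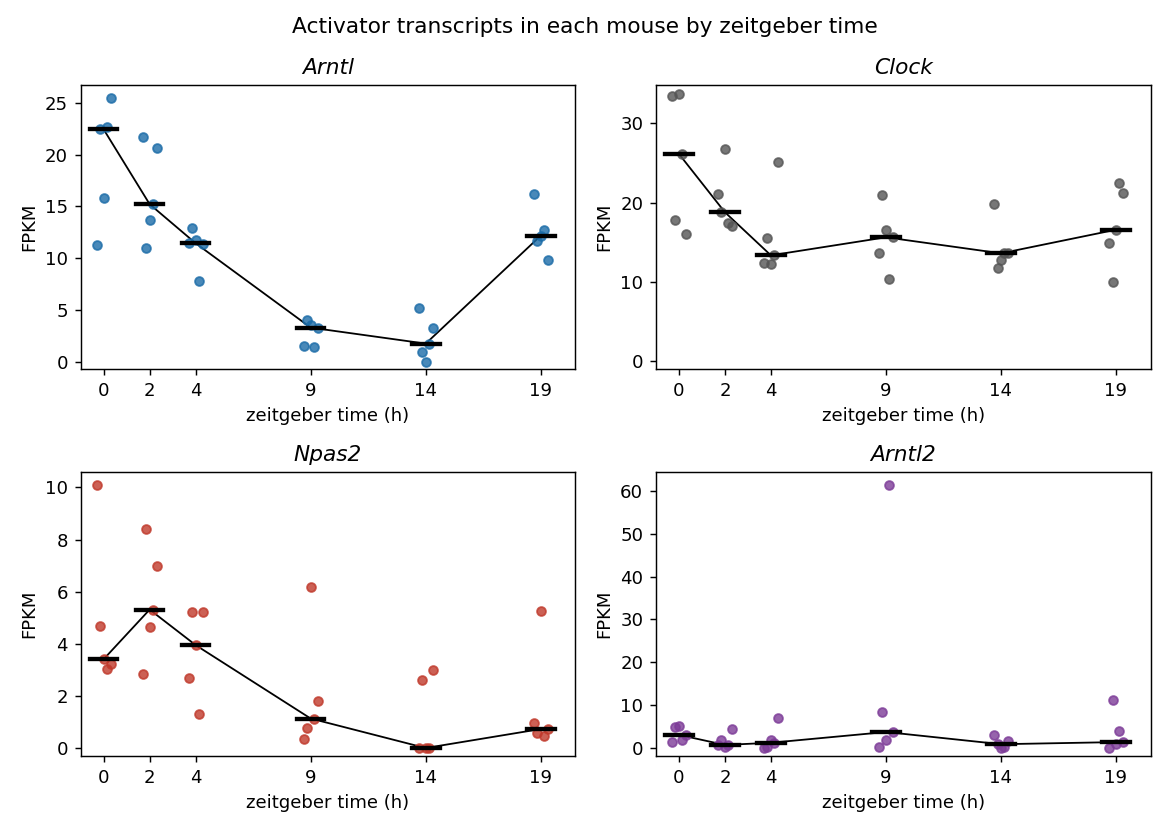
Level in FPKM (linear axes of different height) of the 4 activator transcripts against zeitgeber time; each point is 1 mouse, 5 per time point, and the black bars joined by a line are medians. Arntl is low at ZT9 and ZT14 and high around ZT0, Npas2 is low from ZT9 to ZT19 apart from a few mice, and 1 Arntl2 value of 61.3 FPKM at ZT9 stands far above all others.

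Arntl, the gene of the shared partner in the activator pair, was high around the start of the day and low from ZT9 to ZT14. It measured 11.3, 22.4, 15.8, 22.7 and 25.4 FPKM at ZT0 and 21.6, 11.0, 13.6, 15.2 and 20.6 FPKM at ZT2. At ZT4 it measured 11.4, 12.9, 11.7, 7.83 and 11.3 FPKM. All of these lay above every sample of ZT9 and ZT14. At ZT9 it measured 1.47, 4.05, 3.57, 1.37 and 3.28 FPKM, a mean of 2.75 ± 1.24 FPKM (SD, n = 5). At ZT14 the values were 5.22, 0.905, 1.73 and 3.23 FPKM, and 1 library listed it at 0. At ZT19 it was back at 16.2, 11.6, 12.2, 12.7 and 9.79 FPKM, and this group overlapped with ZT0, ZT2 and ZT4 but not with ZT9 or ZT14.

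In the 24 h cosine fit to log2(FPKM + 1), on which scale all differences here are given and changes of low genes are understated, Arntl had the smallest p of all 16741 genes (amplitude from mean to peak 1.55 ± 0.15 SE, limma adjusted p = 3.73e-07). Its amplitude exceeded that of 99.9% of all genes, whose median amplitude was 0.22. It was 1 of 18 genes past the threshold, 0.108% of those tested. Without ZT14 replicate 3 its amplitude was 1.45 (adjusted p = 6.47e-08). The fit of separate time point means, which assumes no shape, gave the same call for Arntl (adjusted p = 2.13e-05, and 8.35e-06 without ZT14 replicate 3), against 0.0717% of all genes called.

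The largest steps of Arntl between neighbouring times were ZT9 minus ZT4 and ZT19 minus ZT14. Over all pairs of time points, taken as later minus earlier except ZT0 minus ZT19, 7 of 15 differences passed limma's test with adjustment over all genes. In the other 8 pairs 0% to 0.0418% of all genes passed, with 0.00597% for ZT4 minus ZT0 and for ZT19 minus ZT4. The deepest of the 7 were ZT14 minus ZT0, at -2.89 ± 0.35 SE (adjusted p = 0.00011, with 0.0597% of genes called in that pair), and ZT14 minus ZT2, at -2.66 (adjusted p = 0.000538, 0.0597%). ZT9 minus ZT0 was -2.47 (adjusted p = 0.000716, 0.0418%) and ZT9 minus ZT2 was -2.25 (adjusted p = 0.00384, 0.0239%). ZT14 minus ZT4 was -2.15 (adjusted p = 0.0107, 0.0239%). At ZT19 the level was higher again: ZT19 minus ZT14 was 2.32 (adjusted p = 0.00673, 0.0119%) and ZT19 minus ZT9 was 1.90 (adjusted p = 0.0298, 0.0478%). The ZT19 minus ZT9 call was lost in 9 of the 30 fits that left out 1 sample, with adjusted p between 0.051 and 0.128 in those 9. Without ZT14 replicate 3 all 7 calls held, and the differences from ZT14 were then -2.53, -2.31 and -1.80 against ZT0, ZT2 and ZT4, and 1.96 for ZT19 minus ZT14.

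Between ZT4 and ZT9 the Arntl levels of the 5 and 5 mice did not overlap, which 0.627% of all genes showed for these times. The difference was -1.74 (95% interval -2.46 to -1.02), with limma adjusted p = 0.436 over all genes and an exact permutation p of 0.00794, the smallest that 5 against 5 samples allow. Without ZT14 replicate 3 the adjusted p was 0.0472. The groups of all 7 called pairs also did not overlap. Among all genes this held for 1.05% in ZT9 minus ZT0, 1.37% in ZT14 minus ZT0, 1.08% in ZT9 minus ZT2 and 1.24% in ZT14 minus ZT2. It held for 0.771% in ZT14 minus ZT4, 1.6% in ZT19 minus ZT9 and 1.25% in ZT19 minus ZT14. Neighbours in the order of mean levels (ZT0, ZT2, ZT19, ZT4, ZT9, ZT14, high to low) did not pass the adjusted test in any of the 5 steps of that order, and ZT9 and ZT4 were the only such neighbours without overlap. ZT2 minus ZT0 was -0.23 (95% interval -0.95 to 0.50), and ZT14 minus ZT9 was -0.42 (-1.14 to 0.31), and -0.06 without ZT14 replicate 3.

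**Figure D2:**
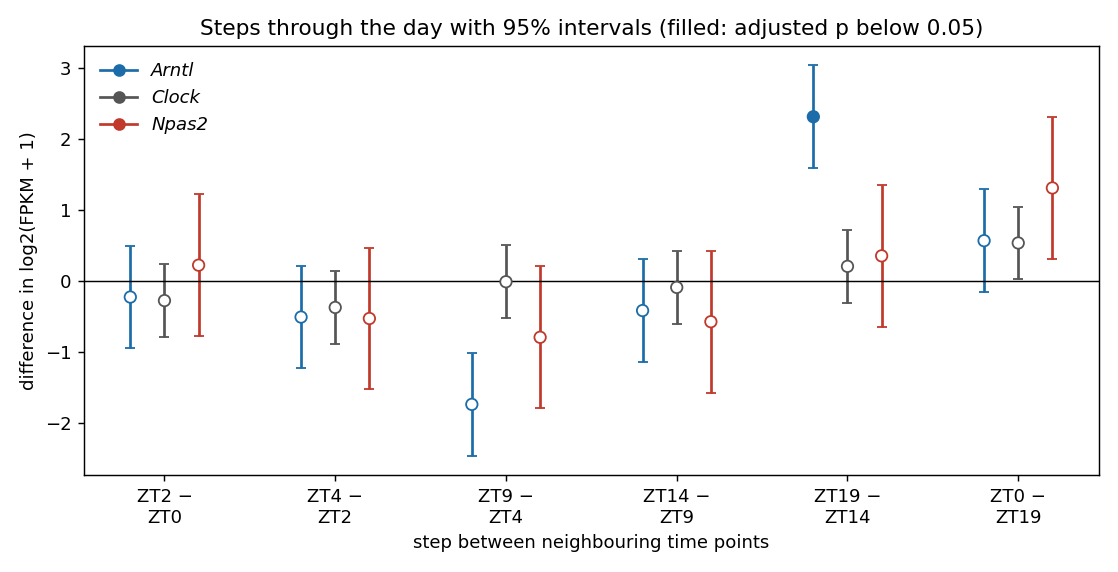
Difference in mean log2(FPKM + 1) between neighbouring time points, later minus earlier, for Arntl, Clock and Npas2; bars are 95% intervals from limma, 5 mice per time point, and filled points passed the adjusted threshold. The lowest Arntl step is ZT9 minus ZT4 (-1.74, not past the adjusted threshold) and the highest is ZT19 minus ZT14 (2.32), while the Clock steps lie between -0.37 and 0.54.

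Clock, the gene of the partner with acetyltransferase activity, was present at 10.0 FPKM or more in every sample, and its 6 group means lay between 14.3 and 25.4 FPKM. It measured 33.4, 17.8, 33.6, 26.1 and 16.1 FPKM at ZT0, which is a mean of 25.4 ± 8.33 FPKM (SD, n = 5). At ZT2 it measured 21.0, 18.8, 26.7, 17.4 and 17.0 FPKM, and at ZT4 12.4, 15.6, 12.2, 13.4 and 25.1 FPKM. These ZT4 samples lay mostly below those of ZT0. At ZT9 the samples held 13.6, 21.0, 16.5, 10.4 and 15.6 FPKM, at ZT14 19.8, 11.8, 12.7, 13.7 and 13.6 FPKM, and at ZT19 14.9, 10.0, 16.6, 22.5 and 21.3 FPKM. Every pair of time points overlapped (0 of 15 pairs apart). In the 7 pairs in which the Arntl groups overlapped too, groups of all genes were apart in 0.723% (ZT2 minus ZT0), 1.03% (ZT4 minus ZT0), 4.85% (ZT0 minus ZT19), 0.538% (ZT4 minus ZT2), 3.46% (ZT19 minus ZT2), 0.896% (ZT19 minus ZT4) and 0.544% (ZT14 minus ZT9).

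The fitted Clock amplitude was 0.30 ± 0.11 SE, with a peak at ZT23.5 ± 1.41 h, and it did not pass over all genes (limma adjusted p = 0.509; amplitude 0.29 and adjusted p = 0.605 without ZT14 replicate 3). Unadjusted, it was among the 8.76% of all genes below 0.05. None of its 15 pairs of time points passed the adjusted threshold. An unadjusted p below 0.05 was found in 4 pairs, all of them involving ZT0: ZT4 minus ZT0 (5.66% of all genes), ZT9 minus ZT0 (4.52%), ZT14 minus ZT0 (10.4%) and ZT0 minus ZT19 (13%). The lowest of these was ZT14 minus ZT0, at -0.75 (95% interval -1.26 to -0.23, adjusted p = 0.346), and -0.71 without ZT14 replicate 3. The step ZT9 minus ZT4, without overlap for Arntl, was -0.01 for Clock (-0.52 to 0.50).

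Npas2, the gene of the alternative partner, had its highest mean at ZT2 and lay low from ZT9 to ZT19 in most mice. It measured 10.1, 4.68, 3.42, 3.03 and 3.22 FPKM at ZT0 and 2.83, 8.42, 4.65, 5.32 and 7.00 FPKM at ZT2, a mean of 5.64 ± 2.16 FPKM (SD, n = 5). At ZT4 it measured 2.70, 5.24, 3.96, 1.33 and 5.22 FPKM. Most later samples lay below these. At ZT9 it measured 0.375, 0.781, 6.19, 1.14 and 1.81 FPKM. At ZT14 it was listed at 0 in 2 libraries and measured 2.61, 0.0119 and 2.99 FPKM in the other 3. At ZT19 it measured 0.982, 0.583, 5.26, 0.463 and 0.740 FPKM. Thus 2 mice at ZT9, 2 at ZT14 and 1 at ZT19 lay within the range of ZT0 to ZT4, which was 1.33 to 10.1 FPKM, and 4 of 5 mice at ZT19 stayed below 1 FPKM.

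The cosine fit placed the peak of Npas2 at ZT2.10 ± 0.91 h with an amplitude of 0.91 ± 0.18 SE, above that of 99.0% of all genes. It ranked 22 by p among 16741 genes and did not pass the adjusted threshold (limma adjusted p = 0.0745). This call was close to the threshold. The adjusted p was 0.0351 with a pseudocount of 0.1 in place of 1, a setting not refitted without ZT14 replicate 3. With a pseudocount of 1 it lay between 0.0207 and 0.17 when single samples were left out. Of these 30 fits 5 were below 0.05, and the fit without ZT14 replicate 3 gave 0.17. In the fit of time point means the adjusted p was 0.313, and 0.307 without that library. Of 15 pairs of time points 0 passed the adjusted threshold and 8 had an unadjusted p below 0.05. These were the pairs of ZT0 with ZT9, ZT14 and ZT19, of ZT2 with ZT9 (4.21% of all genes), ZT14 (9.12%) and ZT19 (10.5%), and of ZT4 with ZT14 (7.13%) and ZT19 (4.95%). The groups of ZT14 and ZT0 did not overlap (ZT14 minus ZT0 -1.67, 95% interval -2.67 to -0.67, limma adjusted p = 0.306, exact permutation p = 0.00794), which 1.37% of all genes showed for that pair, and the difference was -1.47 without ZT14 replicate 3. ZT19 minus ZT14 was 0.36 (-0.65 to 1.36), and 0.16 without that library. ZT2 minus ZT0 was 0.22 (-0.78 to 1.23), so the levels at these times were not told apart.

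Day (ZT2, ZT4 and ZT9) minus night (ZT14 and ZT19), a split by convention since the labels give no lights-off time, was largest for Npas2 among the 4 genes. Its mean log2(FPKM + 1) was 2.05 by day and 0.95 by night, a difference of 1.10 ± 0.32 SE that did not pass over all genes (limma adjusted p = 0.291; 0.0299% of genes called). Unadjusted, Npas2 and Arntl were among the 10.5% of all genes below 0.05. For Arntl the day mean was 3.16 and the night mean 2.58, a difference of 0.59 ± 0.23 (adjusted p = 0.375), with low samples in both groups (ZT9 by day, ZT14 by night). Clock differed by 0.12 ± 0.16 (adjusted p = 0.845) and Arntl2 by 0.40 ± 0.48 (adjusted p = 0.806). The differences without ZT14 replicate 3 were 1.00 for Npas2 (limma unadjusted p = 0.00442), 0.41 for Arntl (unadjusted p = 0.0489), 0.10 for Clock and 0.28 for Arntl2.

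Summed cell type markers moved with the time points too, and their part in these differences was not tested beyond the fit with marker scores given here. Those of surface epithelium ranged from 10386 to 20701 FPKM at ZT0, 9975 to 17269 FPKM at ZT2, 2279 to 20069 FPKM at ZT4, 2543 to 19632 FPKM at ZT9, 3578 to 14407 FPKM at ZT14 and 2412 to 4088 FPKM at ZT19, with all 8 genes listed and Clca3a2 at 0 in 21 of 30 libraries. The groups of ZT4 and ZT9 thus spanned nearly the whole range, while every ZT19 library lay below every library of ZT0 and ZT2. In 4 other lists every ZT19 library lay above every ZT0 library. RPE markers summed to 10195 to 14416 FPKM at ZT19 and 5372 to 9605 FPKM at ZT0, and muscle markers to 6013 to 24200 FPKM at ZT19 and 2972 to 5328 FPKM at ZT0. Endothelial markers summed to 328 to 641 FPKM at ZT19 and 221 to 309 FPKM at ZT0, and immune markers to 661 to 1176 FPKM at ZT19 and 484 to 611 FPKM at ZT0. The rod marker sum had a median of 3492 FPKM at ZT2 and of 359 to 555 FPKM at the other times, with overlapping ranges. With scores of rod, stroma, surface epithelium, muscle and myelin markers as terms, the day minus night difference of Npas2 was 0.56 (limma adjusted p = 0.997) and its amplitude 0.85 (adjusted p = 0.126), with the peak at ZT1.00. For Arntl the day minus night difference in that fit was 0.27 (limma unadjusted p = 0.313, adjusted p = 0.997), and its amplitude was 1.52 (adjusted p = 6.5e-06). That fit held no RPE, endothelial or immune score, so the shifts of those lists between ZT0 and ZT19 had no term of their own.

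Arntl2, the gene of the BMAL1 relative, was low and scattered. It measured 1.41, 4.92, 5.20, 1.98 and 3.14 FPKM at ZT0 and 0.789, 1.87, 0.259, 0.769 and 4.55 FPKM at ZT2. At ZT4 it was listed at 0 in 1 library and measured 0.198, 1.94, 1.30 and 7.05 FPKM in the other 4. At ZT9 the samples held 0.425, 8.42, 1.94, 61.3 and 3.80 FPKM. A single mouse, ZT9 replicate 4, thus stood far above the next highest value of all samples, 11.2 FPKM at ZT19. At ZT14 the values were 3.13, 0.959, 0.254 and 1.69 FPKM beside 1 library at 0, and at ZT19 11.2, 0.977, 4.01 and 1.45 FPKM beside 1 library at 0. Every pair of time points overlapped. The fitted amplitude was 0.26 ± 0.37 SE (limma adjusted p = 0.943; 0.30 without ZT14 replicate 3), and the fitted peak lay anywhere from ZT7.32 to ZT22.8 when single samples were left out.

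In ZT9 replicate 4 the genes on both sides of Arntl2 on chromosome 6 were at usual levels. Stk38l measured 5.33 FPKM there, against a median of 6.33 FPKM in the other 29 samples, and Ppfibp1 measured 52.4 FPKM, against 49.7 FPKM. The Arntl2 median in the other 29 samples was 1.69 FPKM. No annotated gene overlapped Arntl2. Within Arntl and Npas2 the overlapping annotated genes stayed at or below 0.35 FPKM, while the pseudogene Ube2n-ps1 inside Clock, on the same strand, had a median of 0.232 FPKM and reached 9.85 FPKM in 1 sample.

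The balance of partners within a sample was then compared directly, as the difference of log2(FPKM + 1) between 2 members in the same library, fitted with a 24 h cosine and tested with 100000 permutations of the times over the samples (6 member pairs, Benjamini-Hochberg adjusted). Arntl minus Clock cycled with an amplitude of 1.25 and a peak at ZT23.6 (permutation p = 1e-05, the smallest possible, adjusted p = 6e-05). The median ratio of Arntl to Clock was 0.868 at ZT0, 0.875 at ZT2, 0.825 at ZT4, 0.193 at ZT9, 0.127 at ZT14 and 0.733 at ZT19. Arntl exceeded Clock in 2 of 5 mice each at ZT0, ZT2 and ZT19 and in 0 of 15 mice from ZT4 to ZT14.

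Npas2 minus Clock also cycled, with an amplitude of 0.71 and a peak at ZT3.15 (permutation adjusted p = 0.0094). The median ratio of Npas2 to Clock was 0.200 at ZT0, 0.306 at ZT2, 0.218 at ZT4, 0.110 at ZT9 and 0.0580 at ZT19. At ZT14 no ratio is given, since 3 of 5 libraries held Npas2 at 0.0119 FPKM or less. Npas2 minus Arntl cycled with an amplitude of 1.01 and a peak at ZT9.26 (permutation adjusted p = 0.0066), and with a pseudocount of 0.1 the adjusted p was 0.0592. The median ratio of Npas2 to Arntl was 0.553 at ZT9, when both were low, and 0.0606 at ZT19, when Arntl was at 9.79 FPKM or more in all 5 mice and Npas2 below 1 FPKM in 4 of 5. Without ZT14 replicate 3 the amplitudes were 1.15 for Arntl minus Clock, 0.67 for Npas2 minus Clock and 0.99 for Npas2 minus Arntl (permutation adjusted p = 6e-05, 0.0217 and 0.00882).

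Arntl2 minus Arntl had an amplitude of 1.73 (permutation adjusted p = 0.00018), with the peak at ZT11.1. Arntl alone had an amplitude of 1.55 with a peak at ZT23.5, and Arntl2 alone 0.26 (limma adjusted p = 0.943). This difference therefore does not show a daily course of Arntl2. The library with 61.3 FPKM of Arntl2, ZT9 replicate 4, was kept in all of these fits. Arntl2 minus Clock did not pass (0.51, permutation adjusted p = 0.431), and neither did Arntl2 minus Npas2 (0.96, permutation adjusted p = 0.0653). These 3 amplitudes without ZT14 replicate 3 were 1.73, 0.58 and 1.04 (permutation adjusted p = 0.00018, 0.317 and 0.0563). The separate steps between neighbouring times were compared as well, in 18 exact permutation tests chosen after the values had been seen and run with ZT14 replicate 3 included. Arntl minus Clock had no overlap for ZT9 minus ZT4 (-1.73) and for ZT19 minus ZT14 (2.11), each with an exact permutation p of 0.00794 and 0.0714 after adjustment. For Npas2 minus Arntl the step ZT19 minus ZT14 was -1.96 (exact permutation p = 0.0476, adjusted p = 0.214). None of the 18 steps passed after adjustment.

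**Figure D3:**
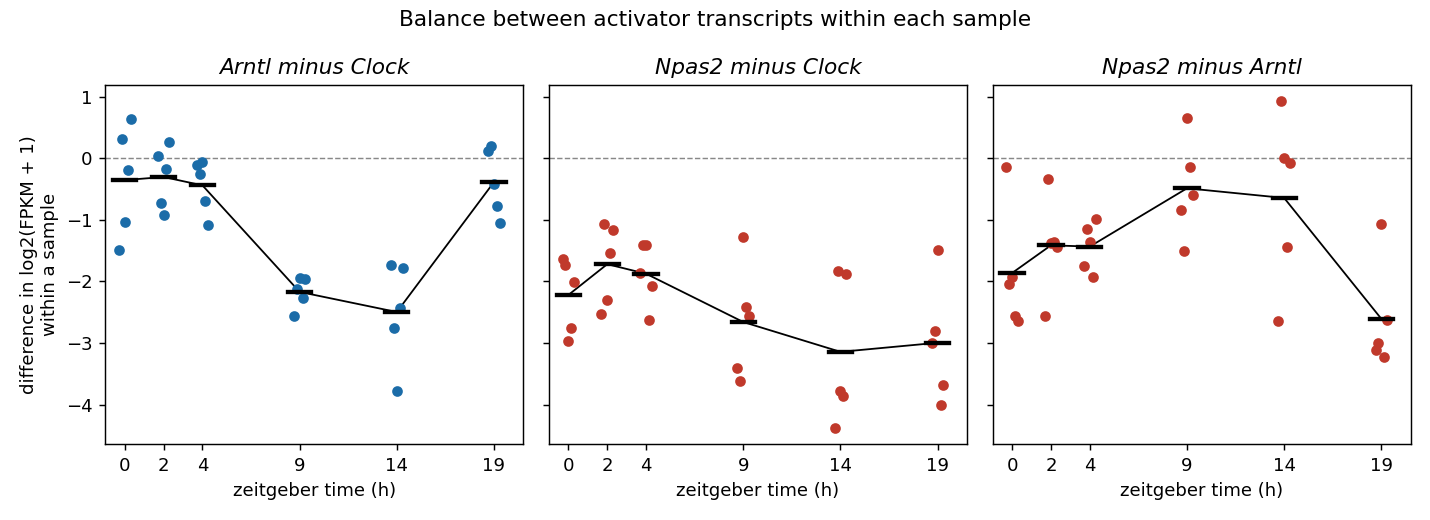
Difference in log2(FPKM + 1) between 2 activator transcripts within each sample against zeitgeber time; points are single mice, 5 per time point, black bars are means, and the dashed line marks equal levels. Arntl minus Clock is near 0 at ZT0, ZT2, ZT4 and ZT19 and averages -2.17 at ZT9 and -2.50 at ZT14; all points of Npas2 minus Clock are below 0.

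Across the 30 mice the level of Npas2 was correlated with that of Arntl (Pearson r = 0.52, permutation p = 0.00313; Spearman rho = 0.44, permutation p = 0.0139; adjusted p over 6 pairs 0.0188 for r and 0.0418 for rho; r = 0.43 without the 2 mice farthest from the median of Npas2). Arntl and Clock had r = 0.47 (permutation p = 0.00819) and rho = 0.46 (permutation p = 0.0117), with adjusted p of 0.0246 and 0.0418 and r = 0.40 without the 2 farthest mice. Npas2 and Clock had r = 0.36 and rho = 0.34 (permutation p = 0.0521 and 0.0675, adjusted p = 0.104 and 0.135), with r = 0.38 without the 2 farthest. Arntl2 had r between -0.03 and 0.00 and rho between 0.07 and 0.20 with the other 3. Without the 2 mice farthest from its median its r was 0.43 with Clock, 0.25 with Arntl and 0.16 with Npas2, so the values near 0 rest on those mice. No pair passed without ZT14 replicate 3: r was 0.44 for Npas2 and Arntl and 0.45 for Arntl and Clock (permutation adjusted p = 0.0509 each), 0.32 for Npas2 and Clock, and -0.13 to -0.06 for Arntl2. These values carry the shared time of day. Within time points, as deviations from the time point means, r was 0.06 for Npas2 and Arntl, 0.14 for Arntl and Clock and 0.06 for Npas2 and Clock, and none of the 6 pairs had an adjusted permutation p below 0.877. Without the 2 mice whose deviations of the gene named first lay farthest from the median, these r were 0.01, -0.03 and 0.03. For Arntl2 the same step moved r from 0.12 to 0.34 with Arntl, -0.09 to 0.27 with Clock and -0.04 to 0.06 with Npas2.

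Among genes that act on activator transcription, both REV-ERB repressor genes had a daily course. Of 8 regulators, all tested, 2 passed the 24 h fit and 4 had an unadjusted p below 0.05, where 0.108% and 8.76% of all genes did. Nr1d1, the gene of the repressor REV-ERB alpha, had its peak at ZT7.40 ± 0.30 h with an amplitude of 1.34 ± 0.13 SE, and its relative Nr1d2 (REV-ERB beta) at ZT10.8 ± 0.37 h with an amplitude of 0.84 ± 0.08 (limma adjusted p = 3.73e-07 each). Rora and Rorb, which encode activating receptors of the same elements, had amplitudes of 0.10 and 0.19 (adjusted p = 0.932 and 0.923). The median amplitude of the 8 regulators was 0.31, against 0.22 over all genes.

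Of 8 repressors of the activator pair, 3 passed and 7 had an unadjusted p below 0.05, where 0.108% and 8.76% of all genes did. The 3 were the Period genes, with peaks at ZT11.5 for Per1, ZT12.1 for Per2 and ZT11.8 for Per3 and amplitudes of 1.00, 1.82 and 0.93 (limma adjusted p = 0.00127, 6.33e-05 and 6.54e-05). Of 8 E-box output genes 3 passed and 6 had an unadjusted p below 0.05, against the same shares of all genes. These 3 were Dbp, a transcription factor gene with a peak at ZT9.48 and an amplitude of 1.15 (limma adjusted p = 3.73e-07), and again Nr1d1 and Nr1d2. The median amplitudes of these lists were 0.74 and 0.82.

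None of the 8 listed coactivators and modifiers of the pair passed, and 1 had an unadjusted p below 0.05, where 8.76% of all genes did. Sirt1, which encodes a deacetylase, had an amplitude of 0.40 (limma adjusted p = 0.559), and Kmt2a, which encodes a histone methyltransferase, had 0.18 (limma adjusted p = 0.787). Of 15 relatives with bHLH and PAS domains 11 were tested, 0 passed and 2 had an unadjusted p below 0.05, against the same 8.76%. These were Ncoa1, a nuclear receptor coactivator gene (0.36, limma adjusted p = 0.486), and Hif3a, a hypoxia factor gene (0.59, limma adjusted p = 0.567). Sim1, Sim2, Npas1 and Npas4 were below the filter. Median amplitudes were 0.15 for the coactivators and 0.20 for the relatives, against 0.22 over all genes. Counting each gene once, 6 of the 41 tested genes of the 5 lists passed, where 0.108% of all genes did. They numbered 7 of 41 without ZT14 replicate 3, where 0.114% of all genes passed, with Nfil3, a repressor gene among the regulators, as the addition. In that fit an unadjusted p below 0.05 was found for 3 regulators, 7 repressors, 6 E-box output genes, 0 coactivators and 1 relative. The share of all genes below 0.05 was not computed for that fit, so these counts have no share to be set against.

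**Figure D4:**
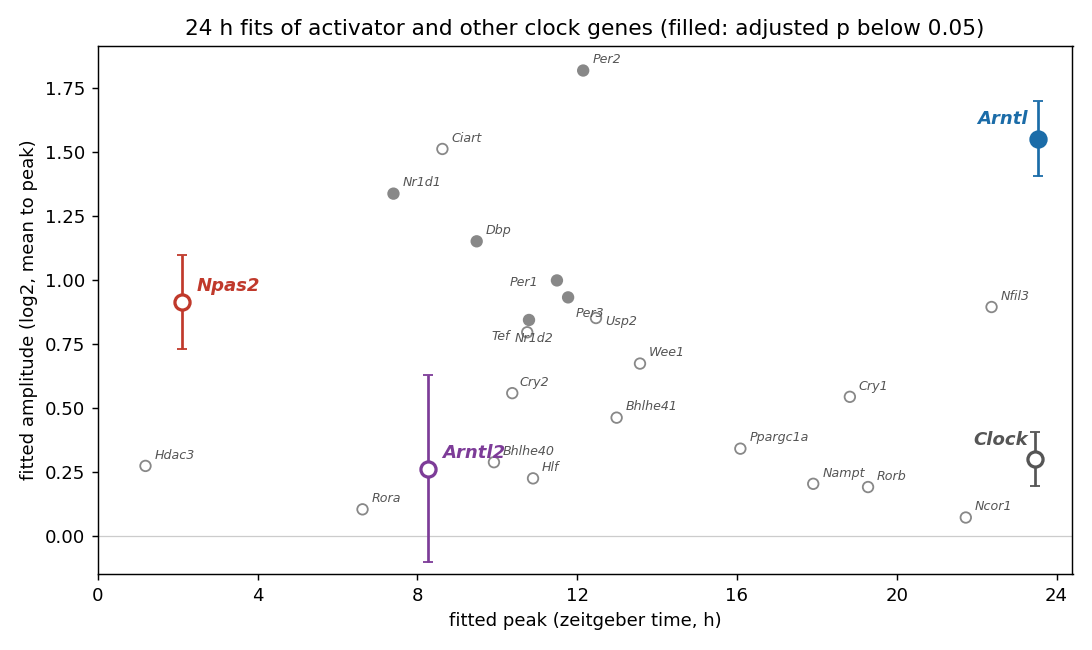
Fitted 24 h amplitude (log2, mean to peak) against fitted peak time for the 4 activator genes (coloured, bars are SE of the amplitude, n = 30 mice) and for regulators, repressors and E-box output genes (grey); filled circles passed the adjusted threshold. Arntl stands alone at ZT23.5 among the filled circles, and the other filled ones lie between ZT7.40 and ZT12.1.

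The genes whose course over the 30 samples was most like that of Arntl were Leo1 (a subunit of the PAF1 elongation complex, r = 0.75), Shc2 (r = 0.70), Nfil3 (r = 0.70), Nop14 (a ribosome assembly factor, r = 0.69) and Tefm (mitochondrial transcription elongation factor, r = 0.68), by Pearson correlation of log2(FPKM + 1). Leo1 peaked at ZT22.2 with an amplitude of 0.57 (limma adjusted p = 0.0202), and Nfil3, which encodes a D-box repressor, at ZT22.4 with 0.89 (adjusted p = 0.0672). The most opposite genes were Per2 (r = -0.77), Per3 (-0.74), Nr1d2 (-0.73), Zbtb16 (the transcription factor PLZF, -0.72) and Rgl1 (-0.71). These values mix time of day with variation between mice. As deviations from the time point means, r was 0.27 (Nfil3) to 0.57 (Leo1) for the alike genes. For the opposite genes it was 0.05 for Per2, 0.16 for Per3, 0.44 for Nr1d2, -0.37 for Zbtb16 and -0.67 for Rgl1. Clock ranked 454 and Npas2 ranked 204 among all genes by likeness to Arntl. Without ZT14 replicate 3 Leo1 (r = 0.74) and Per2 (r = -0.80) were still first, and Per3 and Nr1d2 had -0.74 and -0.76. The other 4 alike genes then had r from 0.56 to 0.62 and ranks from 8 to 27, Zbtb16 and Rgl1 had -0.62 and -0.60, and Clock ranked 183 and Npas2 216.

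Npas2 was most like Samhd1 (which encodes a hydrolase of DNA precursors, r = 0.72), Prc1 (a cytokinesis protein, r = 0.72), Nlrx1 (r = 0.69), Actb (beta-actin, r = 0.69) and Tlr5 (the flagellin receptor, r = 0.68). None of these 5 passed the 24 h fit (limma adjusted p from 0.364 to 0.579). Clock was most like Gm42788 (r = 0.72), Gabrq (r = 0.72), Nek2 (r = 0.70), Gpr39 (r = 0.68) and Kif18a (r = 0.67), whose medians were at or below 1.18 FPKM. Genes most like Arntl2 included Gm26709 (r = 0.68), 2610021A01Rik (r = 0.64), Heatr6 (r = 0.63) and Gm16534 (r = 0.62). The genes named for Npas2, Clock and Arntl2 had, without ZT14 replicate 3, r from 0.61 to 0.72 with their member. As deviations from the time point means over all 30 samples, their r was 0.51 (Nlrx1) to 0.71 (Gabrq). No gene had r above 0.8 over the 30 samples with any of the 4, and these values share the libraries and their depth.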

How the data were processed

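RNA from RPE of 30 mice was sequenced as single 75 bp reads (Illumina NextSeq), per the labels' protocols, which state a mean of 20 M reads (M: mega). The values are FPKM that the authors computed and deposited, 1 per gene and sample. The table is named for that unit and uses the comma as decimal mark. STAR, Cufflinks, DESeq2 and mm10 are named, per the submitters' processing notes; versions, annotation, strand setting and the handling of reads shared between genes are not given in the sources used here. No counts were used, so no count test was run; depth was estimated from the steps between low values of genes with 1 transcript (199 bases taken off the exon length).

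Genes reaching 1 FPKM in 5 or more samples (16741 of 51904) were analysed as log2(FPKM + 1) with limma 3.58.1 (R 4.3.3), using its mean-variance trend, two-sided tests and Benjamini-Hochberg adjustment over all genes (threshold 0.05). One fit used a 24 h cosine; the other used 6 time point means. Within-sample differences and correlations were tested with 100000 permutations in Python 3.11.15, and 5 against 5 samples with exact permutation tests. The fits were tested on simulated data. Samples were grouped by the labelled zeitgeber time; replicate numbers follow accession order and pair nothing. The members, pathway lists and tests were chosen with earlier results of these data known. Named were the 4 members, the pathway genes past the threshold (or the 2 with the smallest p), and the 5 genes most like each member by r, with the 5 most opposite to Arntl; Rora, Rorb, flanking and overlapping genes and genes below the filter were added after their values were seen. One gene of the pathway lists and 1 of those most like a member are not reported here, and the first is left out of the list counts. Of the 51904 IDs, 51625 were in GENCODE M21. Alternatives were other pseudocounts, filters, scalings, weights and covariates, and leaving out each sample. Leaving ZT14 replicate 3 out of the within-sample differences, correlations, lists and likeness, and gaps on the log2 scale, were added after the values were seen.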

Additional observations from a re-analysis of the deposited data

Results flagged for a closer look

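In 7 of 24 groups of 5 mice (4 genes at 6 times) the highest sample stood apart by the gap test on FPKM (gap over range above 0.71). For normally distributed values chance marks about 1 in 20 groups, a rate that need not hold for FPKM, which are skewed upward. On log2(FPKM + 1) only 2 of the 7 passed, Clock at ZT14 (0.72) and Npas2 at ZT19 (0.79), while Arntl2 ZT9 replicate 4 had 0.50. The lowest Arntl sample at ZT4, replicate 4, passed on that scale alone (0.74). For Clock these were 25.1 FPKM in ZT4 replicate 5 and 19.8 FPKM in ZT14 replicate 1. For Npas2 they were 10.1 FPKM in ZT0 replicate 1, 6.19 FPKM in ZT9 replicate 3 and 5.26 FPKM in ZT19 replicate 3. For Arntl2 they were 7.05 FPKM in ZT4 replicate 5 and 61.3 FPKM in ZT9 replicate 4. No Arntl group was marked on FPKM. Among the Npas2 samples, ZT0 replicate 1 had the highest summed surface epithelium markers of all libraries (20701 FPKM), ZT9 replicate 3 had 19632 FPKM and ZT19 replicate 3 had 2412 FPKM. ZT19 replicate 3 also had the highest summed immune markers (1176 FPKM over 8 genes) and ranked 29 from the lowest for RPE and for endothelial markers. Other libraries with such sums had lower Npas2. ZT19 replicate 2 had 1152 FPKM of immune markers and 0.583 FPKM of Npas2. ZT4 replicate 1 had 20069 FPKM of surface epithelium markers and 2.70 FPKM of Npas2. The part of these tissues in the Npas2 values was not tested in single samples.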

How the results depend on the processing

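The Arntl rhythm passed under all 12 other settings (amplitude 1.48 to 1.97, adjusted p at most 0.000121) and in all 30 fits without 1 sample (1.45 to 1.61). Clock passed in none of these 42 fits (0.23 to 0.35), nor did Arntl2 (0.14 to 0.51). The Npas2 amplitude was 1.72 with a pseudocount of 0.1, where it passed, and 0.86 to 1.02 without single samples, with 5 of 30 fits past the threshold; with runs of consecutive animal numbers as a block its adjusted p was 0.286. With a pseudocount of 0.1 the Npas2 minus Arntl rhythm was 1.15 and no longer passed (adjusted p = 0.0592), and Arntl2 minus Npas2 was 1.61 and passed (adjusted p = 0.0488). Genes that differed among time points numbered 19 with array weights, against 12, and genes that differed between day and night numbered 3 with marker scores as terms, against 5. The 12 other settings all kept ZT14 replicate 3. The causes of these changes were not tested. The ZT4 libraries all came from left eyes (5 of 5); with eye as a term the Arntl amplitude was 1.54 and that of Npas2 0.92. No paired analysis was possible because each mouse gave 1 library at 1 time and the labels tie no mice across times. Values far below 1 FPKM rest on few reads, and whether a 0 was an absent transcript or a failed estimate was not tested. The p values rest on the spread between libraries, 1 per mouse, so mouse, dissection and library quality cannot be told apart.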
